A study of Mus musculus with 21 samples.

Results

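The genes examined here encode parts of the B cell receptor complex and its coreceptors: Cd79a, Cd79b, Cd22, Cd72, Cr2, Btk, Syk, Blnk and Cd24a. They were chosen by name as known components of B cell receptor signalling, with Cd24a, a surface glycoprotein of B cells, beside them. Every probe set whose single gene symbol was one of these names was taken, which gave 15 of the 34945 probe sets with 1 symbol, on an array of 45101. The 9 genes stood among 13284 genes tested, and all 15 of their probe sets passed the filter on low signals, which a probe set could pass through its B cell arrays alone. The signal is a probe set brightness on a linear scale, and the median of the whole table was 156.3 units.

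RNA came from cells sorted out of mouse spleen, with 3 arrays in each of 7 groups. Dendritic cells (DCs) sorted with the antibody 33D1, a marker of the CD11c-high DCs that lack CD8, or with an antibody to DEC205 were taken from wild-type C57BL/6 mice, with 40 to 80 mice pooled for an array. The same subsets were taken from mice injected with what the labels call "Flt3L Melanom" and killed on days 10 to 12, with 20 mice pooled, so the ligand and the tumour cannot be told apart. The lymphocyte groups, which were B cells and T cells of the CD4 and CD8 kinds, came from wild-type mice, with 5 to 8 mice pooled. The labels name no engineered allele. The study was made to find the molecule that 33D1 recognises and to compare antigen presentation between the subsets. The question asked here is which B cell receptor genes are also expressed in either DC subset.

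The B cell receptor is a surface immunoglobulin held by a heterodimer of Cd79a and Cd79b, whose cytoplasmic tails carry the tyrosine motifs that start the signal. Phosphorylated tails recruit the kinase Syk, which phosphorylates the adaptor Blnk, and Blnk brings the kinase Btk to phospholipase C. Cr2 (CD21) binds complement fragments and lowers the threshold of activation, while Cd22 and Cd72 carry inhibitory motifs that recruit the phosphatase Ptpn6 (SHP-1). Syk and Btk also act below Fc receptors, C-type lectins and other receptors of myeloid cells.

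The stretches just upstream of Cd79a and Blnk are shown because these 2 genes had the most similar signals of the 36 pairs of members across the arrays. The sequences are the 250 bases before the RefSeq start in GRCm38.p6, 5' to 3' on the gene's own strand, from chr7:24897247-24897496 (plus strand) for Cd79a and chr19:40994222-40994471 (minus strand) for Blnk. Capitals mark GGAAGT, a core that Ets family factors bind, and in Blnk also ATTTGCAT, the octamer.
Cd79a: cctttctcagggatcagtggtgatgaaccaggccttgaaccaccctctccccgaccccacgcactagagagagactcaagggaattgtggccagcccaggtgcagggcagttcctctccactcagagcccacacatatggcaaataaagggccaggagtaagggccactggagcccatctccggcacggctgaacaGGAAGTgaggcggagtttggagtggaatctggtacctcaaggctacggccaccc
Blnk: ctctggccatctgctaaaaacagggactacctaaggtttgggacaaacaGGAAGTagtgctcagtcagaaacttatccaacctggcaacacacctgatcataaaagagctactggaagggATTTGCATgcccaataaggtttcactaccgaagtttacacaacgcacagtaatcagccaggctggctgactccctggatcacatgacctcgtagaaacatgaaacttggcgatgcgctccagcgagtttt
The core lay at positions -54 to -49 of Cd79a and -201 to -196 of Blnk, counted from the start, and the octamer at -130 to -123 of Blnk. All motifs were searched on both strands, and the 2 marked ones do not overlap each other. Entries for the stretch before the start were found for 7 of the 9 members, with 8 windows, and none was used for Cd79b and Cd24a. GGAAGT was in 4 of the 8 member windows (Cr2, Cd72, Cd79a and Blnk) and in 19.7% of all 32851 windows of the same length. ATTTGCAT was in 1 member window and in 1.6% of all windows. A match of letters is a description and not a measured site.

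The arrays carried the sort markers of their labels. Itgax, which encodes CD11c, had mean signals of 9606 to 17680 in the 4 DC groups and 149.3 in B cells. Ly75, which encodes the DEC205 antigen, was at 2973 ± 252 (SD, n = 3) in DEC205 and 169.3 ± 50.7 (SD, n = 3) in 33D1 DCs of wild-type mice, and Cd8a was at 15820 ± 503 and 208.8 ± 142. A description field calls the lymphocyte samples DCs, and Cd3e was at 7748 and 8085 in the groups titled CD4 and CD8 T cells against 110 in B cells. Among 13 markers of CD8-negative DCs, the summed signal was 9099 on the third DEC205 array of wild-type mice against 4836 and 3974 on the others. Among 13 markers of CD8-positive DCs, the summed signal was 27760 on the third 33D1 array of Flt3L mice against 19580 and 22900. Array medians ran from 121.9 to 204.4 units at a common trimmed mean of 500.

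All 9 members were higher in B cells than in the mean of both T cell groups (limma, adjusted p under 0.05), in a contrast where 13.1% of all genes were called higher and 26.9% in either direction. The members were named for their role in B cells, so this count describes their choice. Their differences ran from 2.87 ± 0.24 (SE) for Cd72 to 7.05 ± 0.32 for Cd79a on the log2(signal + 48.6) scale, with a median of 5.80 against -0.06 over all genes. Against the wild-type DC subsets the same genes fell into several kinds. Cd79a and Blnk had no signal above T cells in either subset. Cd79b and Cr2 were low in both, with the higher signal in 33D1 DCs. Cd22 and Cd72 were high in 33D1 DCs, although Cd72 did not pass against CD8 T cells (0.46, limma adjusted p = 0.196). Cd24a was high in DEC205 DCs and lower, yet above T cells, in 33D1 DCs. Syk and Btk were far above T cells in both. The sorted cells were pooled, so fewer cells with a transcript and less transcript per cell cannot be told apart.

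A member was counted as expressed above T cells where it exceeded both CD4 and CD8 T cells by a log2 difference of at least 1, a 2-fold change, with an adjusted p under 0.05 in each of these limma contrasts. By that rule 5 of 9 members were above T cells in 33D1 DCs of wild-type mice (Cd22, Cr2, Btk, Syk and Cd24a), where 9.03% of all genes were. In DEC205 DCs of wild-type mice 3 of 9 were (Btk, Syk and Cd24a), against 9.81% of all genes. In Flt3L mice 5 of 9 were above T cells in 33D1 DCs (Cd22, Cd72, Btk, Syk and Cd24a; background 9.32%) and 3 of 9 in DEC205 DCs (Btk, Syk and Cd24a; background 9.88%). The 4 counts share the same T cell arrays, and the same members met the rule without the third arrays of wild-type DEC205 and Flt3L 33D1 DCs. In B cells all 9 met it (background 4.49%). No member was above B cells in any DC group by the same rule, where 8.98%, 9.74%, 9.56% and 10.2% of all genes were in the order just given. Below B cells were 9, 7, 9 and 7 members, where 6.09%, 7.91%, 5.81% and 8.32% of all genes were. Btk and Cd24a in DEC205 DCs were the members that did not meet it. The members were named for their role in B cells, so the counts in B cells and against B cells describe their choice.

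**Figure D1:**
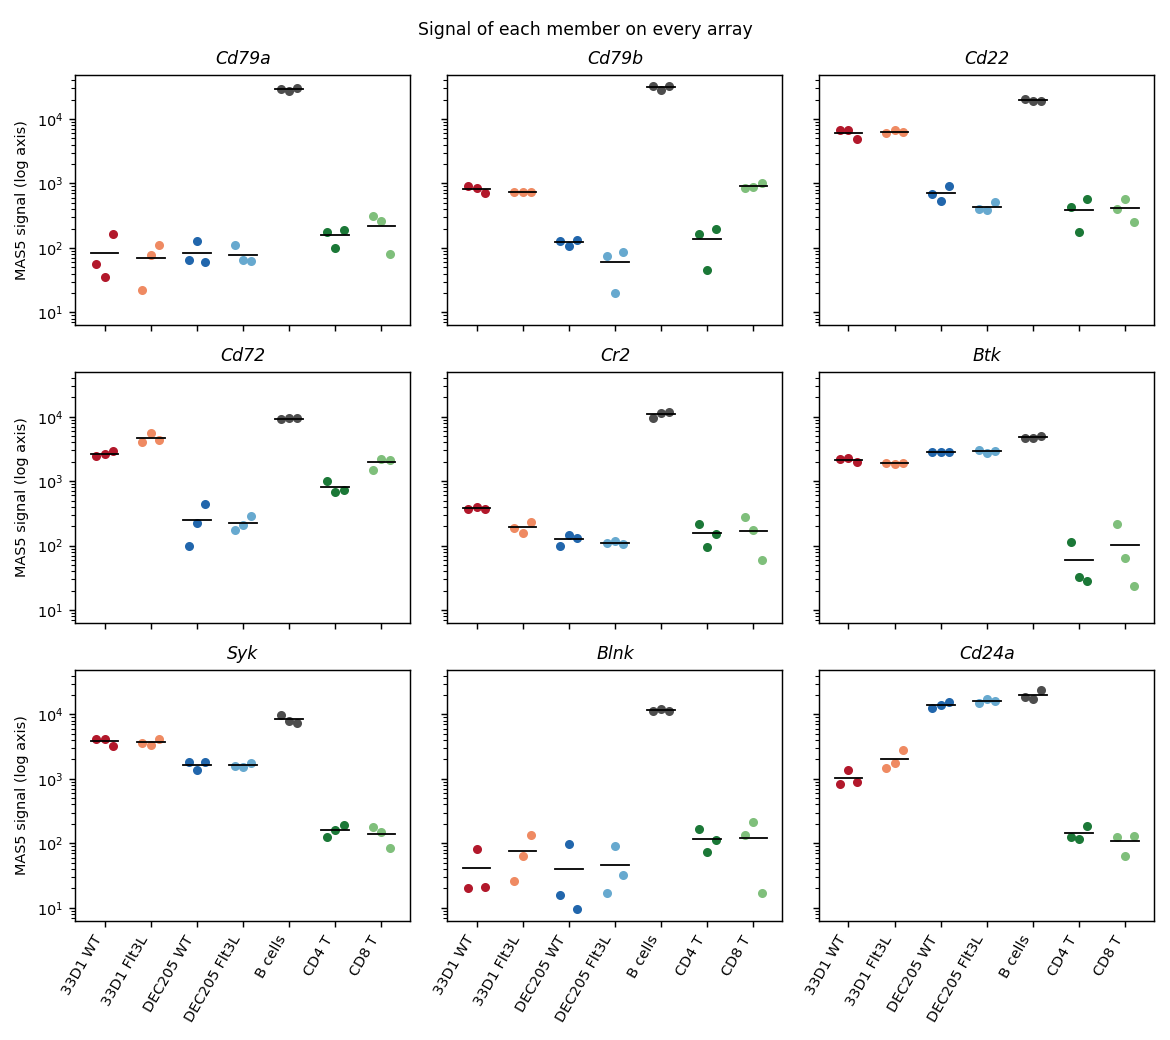
Signal of each member's probe set on every array, on a log axis, by group; points are single arrays and black lines are means of 3. Cd79a and Blnk are high in B cells alone, with B cell means of 29190 and 11670. Cd22, Cd72, Syk, Btk and Cd24a have means of 2933 or more in at least 1 DC group.

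Between the subsets of wild-type mice, 5 members were higher in 33D1 DCs (Cd72, Cd22, Cd79b, Cr2 and Syk) and 1 in DEC205 DCs (Cd24a), where 11.3% and 11.8% of all genes were called higher and lower, 23.1% in all (limma, adjusted p under 0.05). The median over the 9 members was 1.18 against 0.04 over all genes. In Flt3L mice 4 members were higher in 33D1 DCs (Cd72, Cd22, Cd79b and Syk) and Cd24a was again lower, with background shares of 11.7% and 11.8%, 23.5% in all, and medians of 0.58 and 0.04. The same members were called without the third DEC205 array of wild-type mice and the third 33D1 array of Flt3L mice, which stand apart in the markers of the other subset. Their wild-type differences were then 3.77 for Cd72, 3.22 for Cd22, 2.38 for Cd79b, 1.33 for Cr2, 1.25 for Syk and -3.67 for Cd24a. In Flt3L mice they were 4.15 for Cd72, 3.77 for Cd22, 2.92 for Cd79b, 1.07 for Syk and -3.29 for Cd24a. The test of the difference between these contrasts called 0 members, and 14 of 13284 genes (0.105%). The member with the lowest adjusted p in it was Cd24a (0.72 ± 0.31, adjusted p = 0.964).

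**Figure D2:**
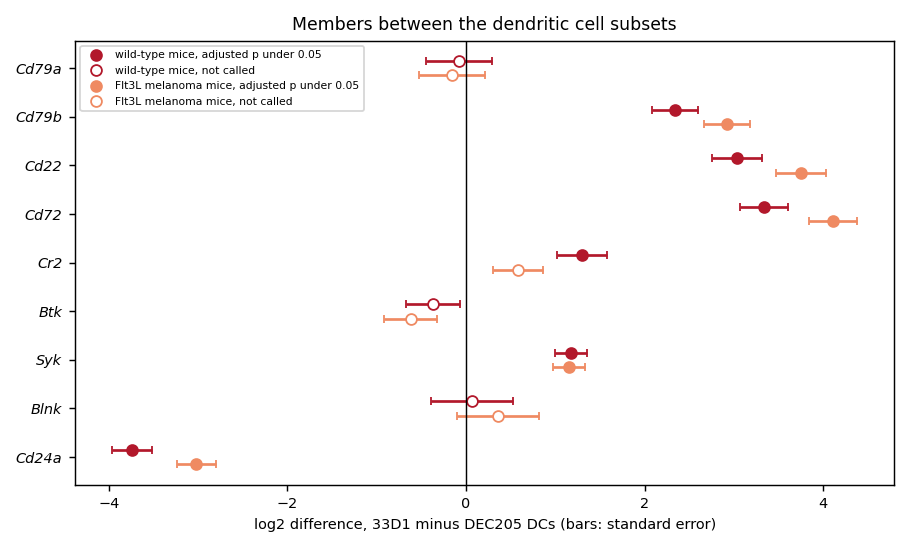
Log2 difference of each member between 33D1 and DEC205 DCs for each kind of mouse, with standard errors; filled points passed an adjusted p under 0.05. Cd72, Cd22 and Cd79b lie at 2.34 or more in both kinds of mice, Cd24a at -3.02 or less, and Cd79a and Blnk between -0.16 and 0.36.

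Cd79a (probe set 1418830_at, chr7:24897497-24901858 in GRCm38.p6), the alpha chain of the signalling heterodimer, gave 29400, 27540 and 30630 units on the B cell arrays. In 33D1 DCs of wild-type mice it gave 56.9, 35.5 and 161.6, and in DEC205 DCs 65.4, 128.2 and 59.8. In T cells it gave 178.7, 101.2 and 188.9 (CD4) and 310.8, 259.5 and 80.4 (CD8). The B cell arrays stood far above all others, and the DC arrays overlapped those of both T cell groups. The mean in the 4 DC groups was between 0.239% and 0.29% of the B cell mean. The subset difference was -0.08 ± 0.37 in wild-type mice (adjusted p = 0.931) and -0.16 ± 0.37 in Flt3L mice (adjusted p = 0.836). Against the mean of T cells the values were -0.84 ± 0.32 in 33D1 (adjusted p = 0.0373) and -0.77 ± 0.32 in DEC205 DCs (adjusted p = 0.0528), both wild-type and both against the same T cell arrays. The call in 33D1 DCs was lost without the first or the second 33D1 array, and without the first or the third CD4 or the first or the second CD8 T cell array (adjusted p between 0.0631 and 0.238). It was also lost with the replicate block (adjusted p = 0.0503), and the levels involved lie near or below the table median.

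Cd79b (1417640_at, chr11:106311341-106314562), the beta chain, did not follow its partner in 33D1 DCs. Its signal was 905.7, 835.4 and 706.8 there in wild-type mice and 128.3, 106.1 and 131.5 in DEC205 DCs. In Flt3L mice the values were 748.9, 749.8 and 736.4 against 76, 20 and 87.1. The 33D1 arrays all lay above the DEC205 arrays, by 2.34 ± 0.26 (adjusted p = 4.52e-07) and 2.92 ± 0.26 (adjusted p = 1.62e-08). B cells gave 32290, 27760 and 32640, so the 33D1 mean was 2.64% ± 0.326 (SD, n = 3) of the B cell mean in wild-type mice.

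T cells set the scale for that level. Cd79b gave 165.3, 44.8 and 195.2 in CD4 T cells and 862.9, 885.7 and 1004 in CD8 T cells. The 33D1 DCs of wild-type mice were above CD4 T cells by 2.34 (adjusted p = 1.79e-07) and their difference from CD8 T cells did not pass (-0.16, adjusted p = 0.663), with arrays that overlapped. Cd79b therefore missed the rule for expression above both T cell groups. The summed signal of 11 T cell markers was 1253 to 1278 on the wild-type 33D1 arrays and 97650 to 116400 in CD8 T cells. The part of T cell transcripts in the Cd79b level was not tested. In order of level, B cells stood first, CD8 T cells and both 33D1 groups next with no difference between neighbours that passed, then DEC205 DCs of wild-type mice with CD4 T cells (0.01, adjusted p = 0.99), and DEC205 DCs of Flt3L mice last.

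Cd22 (1419768_at, chr7:30865404-30880342), a sialic acid binding lectin that restrains receptor signalling, had a high level in 33D1 DCs of both kinds of mice. In wild-type mice its signal was 6675, 6744 and 4894 in 33D1 and 690.6, 527.5 and 900.8 in DEC205 DCs. In Flt3L mice it was 6061, 6870 and 6254 against 397.3, 388 and 512.9. Every 33D1 array stood above every DEC205 and T cell array and below every B cell array (20500, 19010 and 18920). The subset difference was 3.04 ± 0.28 (8.23-fold, adjusted p = 2.01e-08) in wild-type and 3.75 ± 0.28 (13.5-fold, adjusted p = 7.33e-10) in Flt3L mice. The 33D1 mean was 31.3% ± 5.39 and 32.8% ± 2.17 (SD, n = 3) of the B cell mean, and the limma difference from B cells was -1.68 (adjusted p = 4.4e-05) and -1.60 (adjusted p = 7.64e-05).

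In DEC205 DCs Cd22 was near the T cell level. T cells gave 434.9, 175.8 and 572.6 (CD4) and 407.6, 568.2 and 251.7 (CD8). The wild-type DEC205 mean was above the mean of both T cell groups by 0.81 ± 0.24 (adjusted p = 0.00777). Without the third DEC205 array, which has the highest Cd22 and the highest summed signal of CD8-negative DC markers, the difference was 0.63 (adjusted p = 0.0708). In the order of levels, the steps from DEC205 DCs of Flt3L mice to CD8 T cells (0.12, adjusted p = 0.739) and on to CD4 T cells (0.11, adjusted p = 0.952) did not pass.

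Cd72 (1426112_a_at, chr4:43447724-43455102), a C-type lectin that is also inhibitory in B cells, separated the subsets in the same direction. Its signal was 2466, 2624 and 2956 in 33D1 and 98.1, 222.4 and 438.8 in DEC205 DCs of wild-type mice. On the arrays of Flt3L mice it was 4023, 5566 and 4368 against 175.7, 211.7 and 288.7. The groups did not overlap, with differences of 3.34 ± 0.27 (10.1-fold, adjusted p = 4.2e-09) and 4.11 ± 0.27 (17.2-fold, adjusted p = 1.52e-10). With single arrays left out the wild-type difference ran from 2.91 to 3.77, the highest without the third DEC205 array.

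T cells also carried Cd72 signal. CD8 T cells gave 1510, 2210 and 2146 and CD4 T cells 997.3, 684 and 728.6, a gap of 1.23 ± 0.27 (adjusted p = 0.0109). The level in 33D1 DCs of wild-type mice was above CD4 T cells by 1.69 (adjusted p = 2.84e-05), and its 0.46 over CD8 T cells did not pass (adjusted p = 0.196). In Flt3L mice the 33D1 level passed against both, by 2.47 and 1.24 (adjusted p = 1.51e-07 and 0.00084), and stood at 49.7% ± 8.65 (SD, n = 3) of the B cell mean. DEC205 DCs were below both T cell groups, by 1.65 or more on the log2 scale in wild-type mice (differences of -1.65 and -2.88). Between the 33D1 groups the Flt3L arrays were all above the wild-type arrays, and the difference of 0.77 ± 0.27 did not pass (adjusted p = 0.238).

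Cr2 (1425289_a_at, chr1:195136811-195176880), the complement receptor of the coreceptor complex, had low signals outside B cells (9712, 11360 and 12030). In 33D1 DCs of wild-type mice they were 365.1, 401 and 370.9, and in DEC205 DCs 99, 146.4 and 131.2. CD4 T cells gave 215, 95.4 and 151.8 and CD8 T cells 277.8, 177.4 and 58.8. The wild-type 33D1 arrays lay above all 9 of these, and the subset difference was 1.30 ± 0.28 (adjusted p = 0.00123). The mean was 3.43% of that of B cells.

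In Flt3L mice Cr2 gave 188.1, 157.8 and 229.4 in 33D1 DCs, which overlapped both T cell groups, and 109.4, 116.6 and 106.4 in DEC205 DCs. The subset difference there was 0.58 ± 0.28 (adjusted p = 0.153), and the difference of differences was -0.72 ± 0.40 (adjusted p = 1). The fall between the 33D1 groups was -0.84 ± 0.28 and did not pass (adjusted p = 0.195). The standing of Cr2 above T cells in wild-type 33D1 DCs was lost without the second CD4 T cell array, without the third CD8 T cell array and with an offset of 200, which left 4 members there. Below B cells, the wild-type 33D1 group stood first, and no step between later neighbours in the order passed.

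Syk (1418261_at, chr13:52582610-52648792), the kinase that docks on the phosphorylated receptor tails, was expressed in both subsets. Its signal was 4120, 4118 and 3246 in 33D1 and 1798, 1364 and 1828 in DEC205 DCs of wild-type mice. The values in Flt3L mice were 3574, 3355 and 4097 against 1606, 1508 and 1751. All DC arrays stood above the T cell arrays (85.2 to 191.7) and below the B cell arrays (9884, 7816 and 7345), with no overlap between subsets. The subset difference was 1.18 ± 0.18 (2.27-fold, adjusted p = 2.33e-05) and 1.15 ± 0.18 (2.23-fold, adjusted p = 3.28e-05). Against the mean of T cells the wild-type difference was 4.31 ± 0.15 in 33D1 (adjusted p = 6.35e-16) and 3.13 ± 0.15 in DEC205 DCs (adjusted p = 1.33e-13). As a share of the B cell mean, the levels were 45.9% and 19.9%.

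Btk (1422755_at, chrX:134542334-134583628), the Tec family kinase below the receptor, was expressed in both subsets without a difference that passed. It gave 2181, 2252 and 2008 in 33D1 and 2788, 2801 and 2792 in DEC205 DCs of wild-type mice. In Flt3L mice it gave 1941, 1838 and 1885 against 3098, 2736 and 2965. DEC205 arrays were above 33D1 arrays in both kinds of mice, yet the differences of -0.37 ± 0.30 (adjusted p = 0.456) and -0.62 ± 0.30 (adjusted p = 0.156) did not pass in the fit of 7 groups. In a fit of only the arrays of each contrast they did (adjusted p = 0.0128 and 0.00112). T cell arrays gave 23.7 to 218.8, far below every DC array. The cause of the difference between the fits was not tested.

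Btk was above T cells by 4.26 ± 0.26 (adjusted p = 6.38e-12) in 33D1 and 4.64 ± 0.26 (adjusted p = 1.26e-12) in DEC205 DCs of wild-type mice. B cells gave 4705, 4616 and 4971, above every DC array. The DEC205 level was 58.6% (wild-type) and 61.6% (Flt3L) of the B cell mean, and the differences from B cells of -0.76 and -0.69 did not pass (adjusted p = 0.0511 and 0.0746). The 33D1 levels were 45.1% and 39.6%, and differed from B cells by -1.13 and -1.31 (adjusted p = 0.00514 and 0.00143).

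Blnk (1451780_at, chr19:40928927-40994221), the adaptor that joins Syk to Btk and phospholipase C, had no signal above T cells in either subset. Its signal was 20, 81.2 and 20.9 in 33D1 and 15.6, 95.9 and 9.5 in DEC205 DCs of wild-type mice. The values in Flt3L mice were 25.8, 63.5 and 136.2 against 16.7, 89.8 and 31.7. These values lie below the table median of 156.3 and overlap each other and those of T cells (16.7 to 214.2). B cells gave 11360, 12200 and 11440. The subset differences were 0.07 ± 0.46 (adjusted p = 0.952) and 0.36 ± 0.46 (adjusted p = 0.657), and no step between neighbours below B cells passed in the order of levels. Blnk in DCs was 0.346% to 0.644% of the B cell mean.

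Cd24a (1448182_a_at, chr10:43579169-43584265), a small glycoprotein anchored in the membrane by lipid, ran opposite to the coreceptors. It gave 824.1, 1368 and 897.2 in 33D1 and 12710, 14110 and 15380 in DEC205 DCs of wild-type mice. In Flt3L mice it gave 1454, 1772 and 2844 against 14970, 17370 and 16060. DEC205 arrays stood far above 33D1 arrays, with differences of -3.74 ± 0.22 (adjusted p = 2.38e-11) and -3.02 ± 0.22 (adjusted p = 5.9e-10). B cells gave 18920, 17490 and 23500, and the lower values of DEC205 DCs did not pass the test against them (-0.50, adjusted p = 0.0808, and -0.30, adjusted p = 0.312). The 33D1 arrays were also above the T cell arrays (63.5 to 182.9), by 2.64 ± 0.19 on average in wild-type mice (adjusted p = 1.1e-10).

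Cd24a was the 1 member called between Flt3L and wild-type mice in 33D1 DCs, where 1.01% of all genes were called and 0.851% were called higher. The change was 0.92 ± 0.22 (adjusted p = 0.0455), and the 3 Flt3L arrays lay above the 3 wild-type arrays. The third Flt3L array, at 2844, was the highest and also had the highest median signal of CD8-positive DC markers, 488.7 against 194.9 and 169.9 on the others. Without that array the change was 0.65 (adjusted p = 0.262), and the call was also lost without the second Flt3L array (0.98, adjusted p = 0.106), the first wild-type array (0.78, adjusted p = 0.18) and the third wild-type array (0.84, adjusted p = 0.189). With each of 23946 probe sets tested on its own, which adjusts over more tests, this probe set missed the threshold (0.92, adjusted p = 0.051), as did the other ones of Cd24a (0.59, adjusted p = 0.352, and 0.87, adjusted p = 0.0503). In DEC205 DCs 0 members were called by limma, where 2.11% of all genes were. Cd79b at -0.70 ± 0.26 (adjusted p = 0.231) and Cd22 at -0.63 ± 0.28 (adjusted p = 0.34) had lower values there in Flt3L mice that did not pass. The summed signal of CD8-negative DC markers moved with them, from 3974 to 9099 in wild-type to 1942 to 2172 in Flt3L DEC205 DCs, and its part in these values was not tested. Of 20 B cell markers 1, Ms4a1 (CD20), also fell in DEC205 DCs of Flt3L mice, by 1.68 on the log2 scale (adjusted p = 0.00271), and in 33D1 DCs 1, Fcer2a (CD23), rose by 1.64 (adjusted p = 0.00563). The rise of Fcer2a lost its call without the second 33D1 array of Flt3L mice (1.45, adjusted p = 0.0652). The part of these markers in the members' values was not tested.

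Cd22, Syk and Cd24a have more than 1 probe set, and all gave the same direction between subsets. The other Cd22 probe set (1419769_at) gave 2056, 1772 and 2049 in 33D1 and 117.2, 159.1 and 178.9 in DEC205 DCs of wild-type mice. Its differences were 3.33 ± 0.23 in wild-type and 4.0 ± 0.23 in Flt3L mice (adjusted p = 2.94e-10 and 1.98e-11). For Syk, 1418262_at gave 1.21 ± 0.16 and 1.07 ± 0.16, both called. The dimmer Syk probe sets were called in 1 kind of mice each: 1425797_a_at in wild-type mice (1.21 ± 0.26, against 0.63 with adjusted p = 0.0917 in Flt3L mice), and 1457239_at in Flt3L mice (1.13 ± 0.27, against 0.71 with adjusted p = 0.0778 in wild-type mice). The other Cd24a probe sets gave -3.63 and -3.27 (1416034_at) and -3.28 and -2.83 (1437502_x_at, a type of probe set that can bind related transcripts), wild-type mice first.

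**Figure D3:**
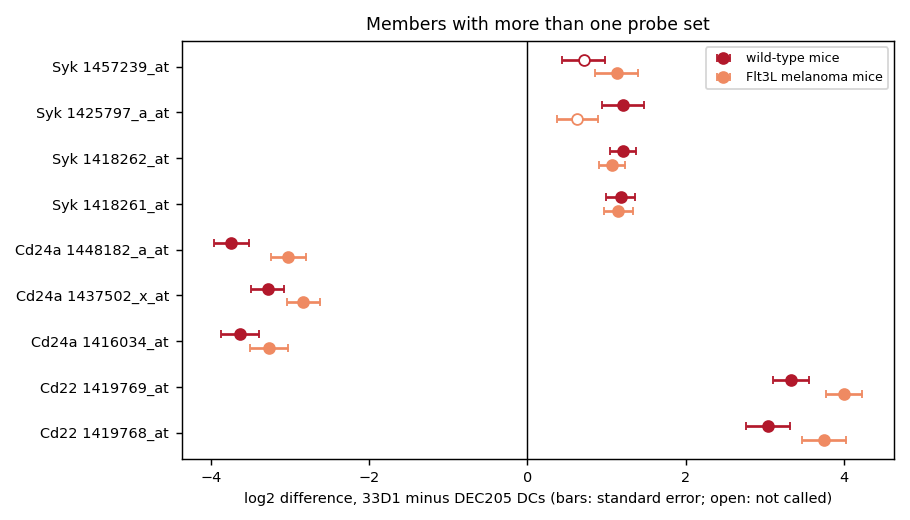
Log2 difference between 33D1 and DEC205 DCs for every probe set of Cd22, Syk and Cd24a, with standard errors, for each kind of mouse; open points did not pass. All Cd22 and Syk probe sets lie above 0 and all Cd24a probe sets below, from -3.74 to -2.83.

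Markers of B cells that are no members were set beside these levels. Of 24 listed markers 20 were tested, and the others were not analysed here. All 20 were higher in B cells than in T cells. Their summed signal was 232100 to 247100 in B cells, 23830 to 34250 in 33D1 and 21000 to 27970 in DEC205 DCs of wild-type mice, and 20960 to 25820 in T cells. In Flt3L mice it was 25020 to 27660 and 16320 to 23040. The largest marker in each DC group was Cd83, which activated DCs also express, at 101% to 159% of its B cell mean.

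The B cell markers in DCs ran over a wide range as shares of their B cell means. In 33D1 DCs of wild-type mice they went from 0.164% (Cd55) to 159% (Cd83), and in DEC205 DCs from 0.249% (Cd55) to 137% (Cd83). Among the lowest was Ebf1, a factor that sets B cell identity, at 0.399% and 0.51%. Ms4a1, which encodes CD20, was at 4.5% and 7.19% and stood above both T cell groups in all 4 DC groups. Ighm, the heavy chain of IgM, was at 24.2% and 24.3%, against 50.3% in CD4 and 47.2% in CD8 T cells. Pax5, which keeps B cell identity, was at 20% and 21.3%, with 171.2 ± 71 and 182.5 ± 132 units (SD, n = 3), against 224.5 and 296.8 units in CD4 and CD8 T cells and 855.6 in B cells. In all, 16 of 20 markers in 33D1 and 17 of 20 in DEC205 DCs were under 10% of their B cell mean, with medians of 4.3% and 2.76%. CD4 and CD8 T cells had medians of 3.16% and 3.12%. The part of B cell transcripts in the members' values was not tested.

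Between the subsets 4 markers were higher in 33D1 DCs of wild-type mice and 1 lower, with a median of 0.11 against 0.04 over all genes. That is 5 of 20 called, where 23.1% of all genes were, so the share is near the background. Spib, an Ets family factor of B cells and plasmacytoid DCs, had 2229 ± 481 and 157.8 ± 44.1 (SD, n = 3), a difference of 3.47 ± 0.29 (adjusted p = 5.3e-09). Blk, a Src family kinase of B cells, had 657.3 and 108.3 (2.34 ± 0.38, adjusted p = 6.14e-05), and Bank1, a scaffold of B cell receptor signalling, had 1445 and 461.6 (1.55 ± 0.28, adjusted p = 0.000163). Cd37, a tetraspanin, differed by 0.48 ± 0.16 (adjusted p = 0.0297), which was lost without the first 33D1 array (0.37) and without the first (0.46) or the third (0.40) DEC205 array. Fcrla, an Fc receptor like protein of germinal centre B cells, was lower in 33D1 DCs, with 130.6 against 680.7 (-2.07 ± 0.25, adjusted p = 1.44e-06). Ms4a1 had 1327 ± 190 in 33D1 and 2120 ± 273 in DEC205 DCs (-0.66 ± 0.29, adjusted p = 0.121), and 0.52 ± 0.29 in Flt3L mice (adjusted p = 0.227), neither of which passed. The difference of Cxcr5 in wild-type mice did not pass either, at 0.64 ± 0.25 (adjusted p = 0.0734). In Flt3L mice the counts were 4 higher and 1 lower, where 11.7% and 11.8% of all genes were, 23.5% in all. The markers called were not all the same. Blk did not pass there (0.76 ± 0.38, limma adjusted p = 0.176). With single arrays left out, Cd37 ran from -0.09 to 0.07 and was never called. Fcer2a, not called in wild-type mice, ran from 2.11 to 2.41 and was always called. Without the third DEC205 array of wild-type mice and the third 33D1 array of Flt3L mice the counts were 3 and 1 in both kinds of mice. Spib, Blk, Bank1 and Fcrla were then at 3.55, 2.04, 1.48 and -2.18 in wild-type mice.

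By the rule against both T cell groups, 5 of 20 markers were above T cells in 33D1 DCs of wild-type mice (Ms4a1, Blk, Bank1, Cd83 and Spib), against 9.03% of all genes, and 3 in DEC205 DCs (Ms4a1, Fcrla and Cd83), against 9.81%. Markers of plasma cells and of plasmacytoid DCs were also summed. The 5 plasma cell markers summed to 6380 to 7681 in 33D1 and 8799 to 9815 in DEC205 DCs of wild-type mice, with Xbp1 the largest. The 7 plasmacytoid DC markers summed to 2976 to 3304 and 4447 to 4617. The part of such cells in the members' values was not tested.

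**Figure D4:**
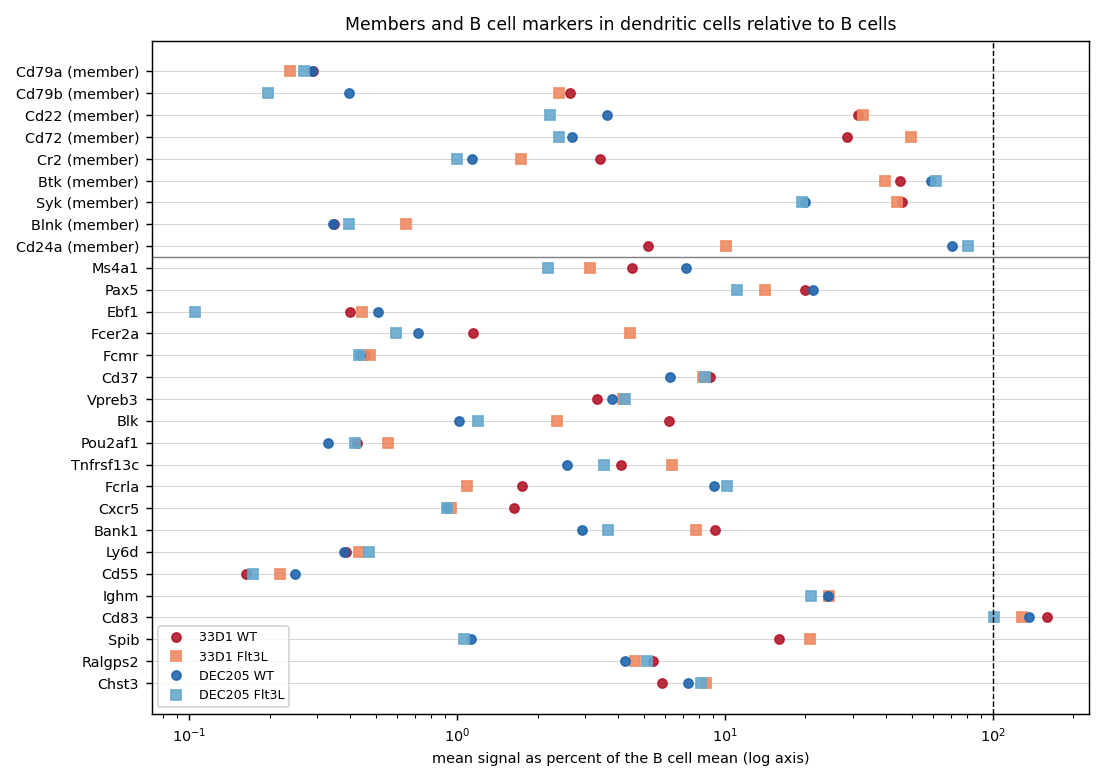
Mean signal of each member and of 20 other B cell markers in the 4 DC groups as percent of the B cell mean, on a log axis; the dashed line marks the B cell level. Cd22, Cd72, Syk and Btk in 33D1 DCs lie between 28.6% and 49.7%, while Cd79a and Blnk lie under 1%; the other B cell markers run from 0.105% to 159%.

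The wider B cell receptor pathway was described with 50 listed genes, of which 42 were tested and the others were not analysed here. In wild-type mice 19 of the 42 were higher in 33D1 and 8 in DEC205 DCs, with a median of 0.29 against 0.04 over all genes, where 11.3% and 11.8% of all genes were called. In Flt3L mice 19 were higher and 7 lower, with a median of 0.34, where 11.7% and 11.8% of all genes were. Without the third arrays of wild-type DEC205 and Flt3L 33D1 DCs the counts were 19 and 7, and 18 and 6. By the rule against both T cell groups, 20 of the 42 were above T cells in 33D1 and 16 in DEC205 DCs of wild-type mice, and 17 in B cells, where 9.03%, 9.81% and 4.49% of all genes were.

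Several of these genes act directly on or beside the members. Ptpn6, the phosphatase that Cd22 and Cd72 recruit, had 12200 ± 1290 in 33D1 and 3191 ± 449 (SD, n = 3) in DEC205 DCs of wild-type mice, a difference of 1.92 ± 0.14 (adjusted p = 5.65e-10). Cd81, the tetraspanin that stands with Cr2 in the coreceptor complex, ran the other way, with 1563 ± 269 and 10430 ± 664 (-2.71 ± 0.17, adjusted p = 7.8e-11). Without the third DEC205 array of wild-type mice and the third 33D1 array of Flt3L mice these were 1.99 and -2.72. Plcg2, the phospholipase that Btk activates, showed no difference that passed (0.01 ± 0.15, adjusted p = 0.973). Fgr, a Src family kinase of myeloid cells, differed by 2.30 ± 0.16 (adjusted p = 2.67e-10), and Lair1, an inhibitory collagen receptor, by 2.33 ± 0.18 (adjusted p = 1.25e-09). Prkcb and Malt1, which carry the signal toward NF-kappaB, differed by 1.39 ± 0.12 and 1.54 ± 0.11 (adjusted p = 7.36e-09 and 7.22e-10). In B cells the means were 14700 for Ptpn6, 6104 for Cd81, 7662 for Plcg2, 10170 for Prkcb and 4219 for Malt1. They were only 758.1 for Fgr and 109.3 for Lair1, against 4415 and 1582 in wild-type 33D1 DCs. Lair1 in B cells was also under CD4 and CD8 T cells (232.8 and 222). Between Flt3L and wild-type mice, Cd81 fell by 1.02 on the log2 scale and Fcgr2b, the inhibitory Fc receptor, rose by 1.33 in 33D1 DCs, while Fgr, Malt1 and Tec fell in DEC205 DCs, by 1.34, 0.85 and 0.94. The fall of Tec lost its call without the first or the second Flt3L array or the second wild-type array of DEC205 DCs (-0.75, -0.82 and -0.78). In the same DEC205 contrast 7 of 13 markers of CD8-negative DCs fell, with a median of -1.09, and their part in these falls was not tested. Leaving out the third arrays of wild-type DEC205 and Flt3L 33D1 DCs put Cd81 and Fcgr2b at -1.11 and 1.20 and Fgr, Malt1 and Tec at -1.19, -0.74 and -0.96, all called.

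Across the 21 arrays, Cd79a, Blnk and Cr2 followed each other. Pearson's r of log2 signals was 0.979 for Cd79a with Blnk and 0.864 for Cd79a with Cd79b. It was 0.925 for Syk with Btk and lowest for Cd72 with Cd24a, at -0.138. The 2 genes most like each member were sought among the genes tested, with clone-type names such as Gm and Rik left out. They were Mzb1 (0.99) and Fcmr (0.989) for Cd79a, and the same genes for Blnk (0.984 and 0.982). Cd22 was most like Spib (0.977) and Stap1 (0.967), Cd72 most like Ms4a4c (0.958) and Pgap1 (0.948), and Cd79b most like Plaur (0.962) and Fam167a (0.934). Cr2 was most like Pxdc1 (0.992) and Blvrb (0.981), Syk most like Mef2c (0.988) and Hhex (0.985), Btk most like Ly86 (0.982) and Rasgrp3 (0.98), and Cd24a most like Prr5 (0.983) and Strbp (0.973). These values rest on 7 groups of 3 arrays that share their array and scaling, so they describe the order of the groups.

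Against the mean of both T cell groups, 7 members were higher in 33D1 DCs of wild-type mice and 1, Cd79a, lower, where 19.5% and 24.7% of all genes were, 44.3% in all. In DEC205 DCs 4 were higher (Cd22, Btk, Syk and Cd24a) and 2 lower (Cd79b at -1.25 ± 0.23 and Cd72 at -2.26 ± 0.24), where 21.7% and 27.5% of all genes were, 49.2% in all. The member medians were 1.11 and -0.20, against -0.13 and -0.16 over all genes. Median centring of the arrays raised the share of higher calls among all calls from 44.1% to 56.4% in the former contrast and from 44.1% to 61.1% in the latter, and from 48.5% to 60.5% for B cells against T cells. It moved the all-gene median to -0.02, 0.05 and 0.08, and it left the member counts at 7 and 1, 4 and 2, and 9 and 0.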

How the data were processed

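The deposited table gave the MAS5 signal intensity of 45101 probe sets on 21 Affymetrix arrays, which the authors computed in GCOS with MAS5, as the submitters' processing notes list them. Program versions are not given in the sources that were used. Every array had a 2% trimmed mean of 500, so the arrays had been scaled before deposit, and detection calls were not used here. Biotinylated cRNA was made from pooled RNA per the labels' protocols. Whether the pools of a group were independent is not stated, so p-values measure only the spread between pools, which may be technical. The number of arrays limits the precision.

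Groups and replicate numbers came from the sample titles. Of the probe sets, 34945 had 1 gene symbol in the platform annotation, 932 had several and were not used, and 64 were controls. Entrez identifiers of 34741 were found in the RefSeq table, with 0 symbols changed. Probe sets above 156.3, the table median, on at least 3 arrays were kept, and the brightest kept probe set on average stood for its gene, giving 13284 genes. The analysis scale was log2(signal + 48.6), with the 25th percentile of the table as offset, which understates the change of low genes. One limma model (3.58.1, R 4.3.3; lmFit, eBayes with trend, 14 residual degrees of freedom) held 7 group means. Tests were two-sided, with Benjamini-Hochberg adjustment over all genes of a contrast, and calls at an adjusted p under 0.05. The scripts were tested on simulated data. Neighbours in the order of levels and the T cell rule used the 21 pairwise contrasts.

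All members and their probe sets are named. From the pathway and B cell marker lists the text names up to 6 genes each with the smallest adjusted p in the wild-type subset contrast, then Ms4a1, Pax5, Plcg2 and Ptpn6. It also names the 2 genes most correlated with each member and the sort markers. Other list genes, such as Fcgr2b, Tec, Fcer2a, Ebf1, Ighm, Cd55 and Cd83, were named after their values were seen. The members and lists were chosen with earlier results of these data known. Alternatives covered the offset, scaling, filter, choice of probe set, variance prior, replicate block, samples in the fit, and single arrays left out.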

Additional observations from a re-analysis of the deposited data

Results flagged for a closer look

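The subset difference of Fgr, a Src family kinase in the pathway list, differed between Flt3L and wild-type mice by 1.15 ± 0.22 on the log2 scale (limma interaction, adjusted p = 0.0397). The signal was 4415 ± 218 and 3875 ± 247 (SD, n = 3) in 33D1 DCs of wild-type and Flt3L mice, and 865.4 ± 176 and 309.9 ± 45 in DEC205 DCs. The third DEC205 array of wild-type mice, which has the highest summed signal of CD8-negative DC markers, is in this contrast, and without it the value was 1.0 (adjusted p = 0.163). Its direction held under every alternative run, and its call was lost in most of them, among them an offset of 16 (adjusted p = 0.0521) and the replicate block (adjusted p = 0.0735). The same test called 0 of the 9 members.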

How the results depend on the processing

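The 9 members called for B cells against T cells, and the 0 for the interaction and for DEC205 DCs of Flt3L against wild-type mice, were the same count under every alternative run. The counts between subsets, 6 in wild-type and 5 in Flt3L mice, rose with Btk to 7 and 6 when only the groups of the contrast were fitted, and to 6 in Flt3L mice with an offset of 200. They stayed at 6 and 5 otherwise. Leaving out single arrays gave 7 to 9 members for 33D1 DCs and 5 to 8 for DEC205 DCs against T cells. Above both T cell groups it gave 4 to 5 (33D1, wild-type), 3 to 3 (DEC205, wild-type), 5 to 5 (33D1, Flt3L) and 3 to 3 (DEC205, Flt3L). The count of 1 for 33D1 DCs of Flt3L against wild-type mice fell to 0 with an offset of 16, quantile normalization, median centring, no filter, the mean of all probe sets, the probe set of largest variance, eBayes without trend, and without the third DEC205 wild-type and the third 33D1 Flt3L arrays; single arrays left out gave 0 to 1. With only the groups of the contrast it was 2, Cd72 (0.77) and Cr2 (-0.84), and not Cd24a. The cause was not tested. Of 1479 recomputed member values, 1433 kept their side of the threshold, 29 lost a call, 17 gained one and 0 of the called ones reversed. The 1433 include values that were not called in either fit and changed sign. One such case is Cd79a between wild-type subsets, from -0.46 to 0.20 with single arrays left out.

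Replicate numbers did not pair the arrays: 13 of 63 pairs with the same number had deviations correlated above 0.1, from -0.378 to 0.355, and 6 of 21 arrays correlated best with their own number. With the replicate block the members called were 6, 5, 0, 1, 0 and 9 for the contrasts of DC groups and of B cells against T cells, as without it. Against T cells they were 7 instead of 8 in 33D1 DCs, without Cd79a, and 7 instead of 6 in DEC205 DCs, with Blnk added (adjusted p = 0.0467). Signals near or below the table median, as of Cd79a and Blnk in DCs, are limited by the low end of the MAS5 scale.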
